A study of Homo sapiens with 11 samples.

Results

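The genes of cholesterol synthesis, its regulation, sterol transfer and export, and fatty acid synthesis were measured by RNA sequencing in 6 libraries, 3 labelled Control-KD and 3 labelled H2AS40-KD. The 32 genes were taken as a list by symbol and role, chosen with earlier results of these data known, and all 32 were found among the 37247 gene identifiers of the deposited table. They are 18 enzymes of cholesterol synthesis, 4 regulators, 2 genes of sterol transfer and receptor turnover, 2 sterol exporters, and 6 genes of fatty acid synthesis and desaturation. All 32 passed the filter on low values, at least 1 transcript per 1000000 (TPM) in at least 3 of the 6 libraries, which 14160 genes passed in all.

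MDA-MB-231, the labelled cell line, was established from a triple-negative breast cancer. The Control-KD libraries carry the genotype label WT, and the other 3 carry a label for a knockdown of the S40 type of histone H2A, the form with a serine at residue 40. The labels give no gene, reagent or time for the knockdown, and both groups were grown with 10% fetal bovine serum, which contains lipoproteins. Nothing in the labels tells whether the replicates came from separate cultures. P-values set the difference between the groups against the spread of libraries within them, and that spread may be technical. They may therefore not extend to new cultures.

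Of 15 canonical H2A genes in the table, 13 were tested. Of these, 3 had a limma unadjusted p under 0.05, where 16.5% of all tested genes did. They were H2AC6 and H2AC8 on the higher side and H2AC20 on the lower. Limma called 0 of the canonical H2A genes, and the smallest limma adjusted p was 0.122. Their summed level was 217 ± 9.47 TPM in the controls and 229 ± 4.61 TPM (SD, n = 3 each) in the other group, but the labels do not say which of these genes the knockdown targeted, so this sum checks no label and the libraries are named by label throughout. Control-KD replicate 3 stood apart on a principal component holding 29.6% of the variance, at -31.2, with -0.784 to 12 for the other 5 libraries. The mesenchymal markers fixed for the cell line were abundant, with VIM (vimentin) between 2247 and 2281 TPM, and CD44, AXL and CAV1 between 108 and 365 TPM. The last 3 did not overlap between the groups and were lower under the H2AS40-KD label, with means of 359 and 310 TPM for CD44 (limma adjusted p = 0.0543), 204 and 192 TPM for AXL (0.218) and 149 and 111 TPM for CAV1 (0.0173, called). The epithelial and luminal markers were abundant as well, although the line is known for little E-cadherin and little GATA3. CDH1, which encodes E-cadherin, lay between 56.8 and 64.8 TPM, GATA3 between 436 and 471 TPM, and EPCAM, KRT19 and FOXA1 between 75.2 and 866 TPM. The markers therefore do not settle whether the libraries match the labelled line, and this was not tested. The groups did not overlap for EPCAM (means 165 and 170 TPM) and KRT19 (811 and 861 TPM), higher under the H2AS40-KD label. GATA3 (467 and 448 TPM) did not overlap either and was lower under that label. None of these 3 was called. Over all tested genes 24.2% did not overlap between the groups, 12.9% higher and 11.3% lower. The summed level of the 5 fibroblast markers was 7.15 to 10.2 TPM in the controls and 6.81 to 10.4 TPM under the H2AS40-KD label. That of the 5 blood cell markers was 1.93 to 2.81 and 1.13 to 2.31 TPM, with the T cell marker CD3E at or near 0. The share of TPM from mitochondrially encoded genes was 3.32 to 3.43% and 3.19 to 3.47%.

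Cells make cholesterol from acetyl-CoA through mevalonate, isoprenoid diphosphates and squalene, and take it up from lipoproteins through receptors at the surface. The transcription factor SREBP-2, encoded by SREBF2, is held in the endoplasmic reticulum with SCAP and INSIG1 when sterols are plentiful. When sterols run low it is cut free and activates the enzymes of the pathway together, while SREBP-1, encoded by SREBF1, acts more on fatty acid genes. Both factors usually act beside NF-Y, which binds the sequence CCAAT, or beside Sp1, which binds GC boxes.

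Promoter letters are shown because many of these genes are known SREBP targets. The windows to print were picked with the p-values known. Whether these letters go with the differences between the labels was not tested. RefSeq promoter windows (GRCh38.p14, 250 bases before a transcript start, 5′ to 3′ on the gene's strand) were present for 27 of the 32 genes. Capitals mark TCACNCCAC, a form of the sterol regulatory element, CCAAT, and GGGCGG, the GC box, each read on both strands (CCAAT appears as ATTGG and GGGCGG as CCGCCC on the opposite strand), and matches of 1 motif may overlap. Among these 27 genes SREBF2 alone held the sterol element form. Other forms of the element, and bases outside these windows, were not searched. INSIG1, SCD and FADS2 had the smallest p-values of the list, and NSDHL had the difference nearest to 0.
SREBF2, chr22:41832855-41833104, plus strand: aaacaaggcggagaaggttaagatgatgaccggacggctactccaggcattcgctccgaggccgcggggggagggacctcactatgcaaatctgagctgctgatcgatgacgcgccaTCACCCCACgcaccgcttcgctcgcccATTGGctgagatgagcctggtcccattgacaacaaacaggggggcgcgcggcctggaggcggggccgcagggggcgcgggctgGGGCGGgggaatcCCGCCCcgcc
INSIG1, chr7:155297628-155297877, plus strand: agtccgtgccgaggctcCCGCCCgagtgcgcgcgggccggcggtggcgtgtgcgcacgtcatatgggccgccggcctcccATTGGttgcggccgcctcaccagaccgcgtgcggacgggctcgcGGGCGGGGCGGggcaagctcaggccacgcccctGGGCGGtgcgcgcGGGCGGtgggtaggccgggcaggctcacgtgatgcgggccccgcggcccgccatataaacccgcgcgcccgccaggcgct
SCD, chr10:100346983-100347232, plus strand: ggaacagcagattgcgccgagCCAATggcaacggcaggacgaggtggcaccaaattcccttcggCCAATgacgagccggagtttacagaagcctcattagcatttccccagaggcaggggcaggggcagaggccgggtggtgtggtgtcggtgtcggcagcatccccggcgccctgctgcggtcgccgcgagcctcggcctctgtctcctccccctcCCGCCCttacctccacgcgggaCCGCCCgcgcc
NSDHL, chrX:152830813-152831062, plus strand: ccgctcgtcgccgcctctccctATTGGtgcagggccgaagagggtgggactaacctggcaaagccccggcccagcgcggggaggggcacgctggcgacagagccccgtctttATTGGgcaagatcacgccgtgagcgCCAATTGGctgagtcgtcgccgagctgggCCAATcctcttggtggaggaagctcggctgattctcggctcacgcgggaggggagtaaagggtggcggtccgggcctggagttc
FADS2, chr11:61815953-61816202, plus strand: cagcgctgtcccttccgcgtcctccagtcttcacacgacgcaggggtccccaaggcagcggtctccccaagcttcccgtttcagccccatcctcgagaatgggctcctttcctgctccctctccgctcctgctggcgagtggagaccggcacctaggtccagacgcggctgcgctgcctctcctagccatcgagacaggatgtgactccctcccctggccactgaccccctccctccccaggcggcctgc

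In these windows the sterol element of SREBF2 began 133 bases before the start. INSIG1 had 1 CCAAT match and 5 GC boxes, SCD had 2 of each, and NSDHL had 5 CCAAT matches and no GC box. The window before the upstream FADS2 start held none of the 3 motifs, which says only that these letters are absent there, and a second RefSeq window of FADS2, before a start further downstream, held 1 GC box, 154 to 149 bases before that start. A CCAAT match was present for 20 of the 27 listed genes (74.1%) and for 13 of the 15 enzymes of cholesterol synthesis with a window (86.7%), where 41.7% of the 10332 tested genes with a window had one. GC boxes were present for 96.3% of the listed genes and 75.3% of tested genes, and the sterol element form for 3.7% and 1.21%. Genes with several windows were counted once, with a match in any window. A match is a description of the letters and not evidence of binding.

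Of the 32 genes, 1 was called between the labels: FADS2, the delta-6 desaturase that starts the synthesis of long polyunsaturated fatty acids, fell. The test was limma on log2(TPM + 1) and a gene was called at a Benjamini-Hochberg adjusted p under 0.05 across the 14160 tested genes. By the same rule 178 tested genes (1.26%) were called, 73 of them higher (0.516%) and 105 lower (0.742%), so 1 call among 32 genes (3.13%) is not a result about the list as a whole. In bulk RNA, fewer cells that express a gene and less of its RNA per cell cannot be told apart. The 32 genes had 15 positive and 17 negative differences, a median log2 difference of -0.01 beside 0.01 over all tested genes. With FADS2 set aside, differences ran from -0.24 for STARD4 to 0.23 for PMVK, with limma adjusted p-values from 0.114 to 0.99. The groups did not overlap for 7 of the 32 genes, 3 higher and 4 lower. Over all tested genes 24.2% did not overlap, 12.9% higher and 11.3% lower. A limma unadjusted p under 0.05 was found for 6 of the 32 genes (18.75%), where 16.5% of all tested genes had one.

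**Figure D1:**
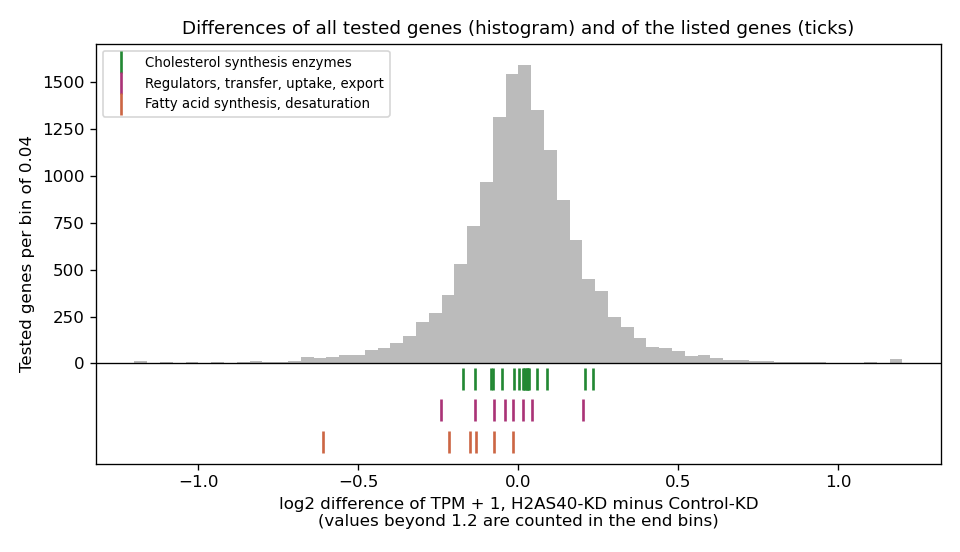
Histogram of the log2 difference (H2AS40-KD minus Control-KD, of TPM + 1) for the 14160 tested genes, in bins of 0.04, with a row of ticks for each of 3 groups of the listed genes. The cholesterol synthesis enzymes lie between -0.17 and 0.23 around the centre of the histogram, and the 6 fatty acid genes lie between -0.61 for FADS2 and -0.02 for FASN.

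For 31 of the 32 genes the 95% interval of the log2 difference of TPM + 1 lay within 0.58 either way, and for 19 of them within 0.26. On the scale of TPM itself the intervals are wider, most so for the genes of low level. These intervals are per gene and are not adjusted for the number of genes. They estimate the difference between the groups from the spread of libraries within them, and do not show that the levels are equal.

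Most of the pathway was expressed at middle to high levels. FDPS, which makes farnesyl diphosphate for sterols and for protein prenylation, was the most abundant of the list, with 203, 207 and 211 TPM in the controls and 221, 209 and 204 TPM under the H2AS40-KD label. TPM are per gene length, so levels can be set side by side: FDPS was above 94.9% of tested genes in mean level, FASN above 91.2% and DHCR7 above 90.2%. The lowest enzyme of cholesterol synthesis was HSD17B7, a 3-keto-sterol reductase, with 9.31 to 12.3 TPM over the 6 libraries. The exporters ABCA1 and ABCG1 were the lowest of all, between 3.17 and 5.20 TPM. The summed level of the 18 enzymes was 1177 ± 5.43 TPM in the controls and 1183 ± 29.3 TPM under the H2AS40-KD label (SD, n = 3 each).

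**Figure D2:**
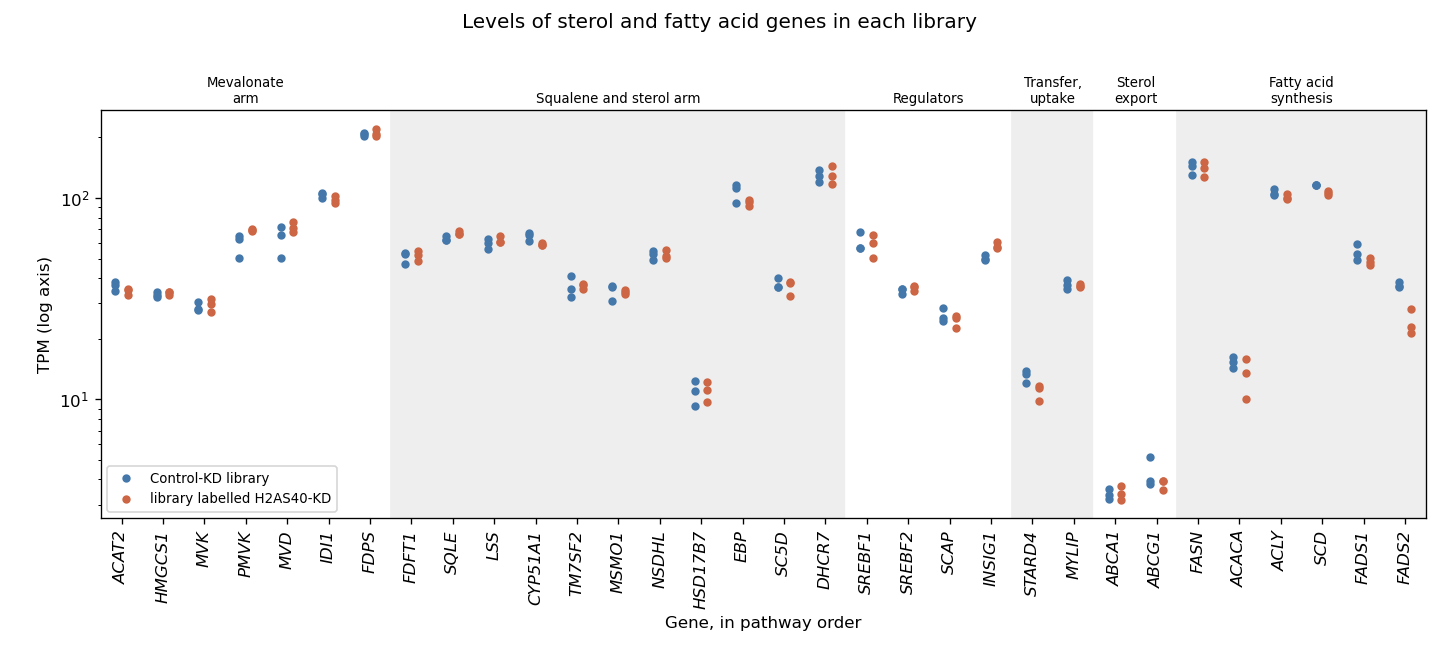
TPM on a log axis of each of the 32 genes in each library, in pathway order, with Control-KD in blue and the libraries labelled H2AS40-KD in orange. FDPS is highest at 203 to 221 TPM, the exporters ABCA1 and ABCG1 are lowest at 3.17 to 5.20 TPM, and FADS2 shows the widest gap between the colours.

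In the mevalonate arm, from acetyl-CoA to farnesyl diphosphate, 0 of 7 genes were called, and the median log2 difference was 0.03. A limma unadjusted p under 0.05 was given to 1 (14.3%, beside 16.5% of all tested genes). HMGCS1, the synthase that makes HMG-CoA and a standard SREBP-2 target, had 32.3, 34.2 and 32.8 TPM in the controls and 34.3, 34.2 and 33.1 TPM under the H2AS40-KD label. Its values varied little, and the groups overlapped, at a log2 difference of 0.03 with a 95% interval from -0.09 to 0.15 (limma adjusted p = 0.807). IDI1, which isomerises isopentenyl diphosphate, had group means of 104 and 98.2 TPM, MVK, mevalonate kinase, had 28.7 and 29.5 TPM, and ACAT2, the cytosolic thiolase of the opening step, had 36.6 and 34.4 TPM. Their groups overlapped.

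PMVK and MVD, the kinase and decarboxylase that follow mevalonate kinase, had the largest positive differences of the enzymes. PMVK had 64.6, 62.4 and 50.4 TPM in the controls and 70.0, 68.9 and 69.1 TPM under the H2AS40-KD label. The groups did not overlap, and the low value was that of Control-KD replicate 3, the library that stood apart. The log2 difference was 0.23 with an SE of 0.09 (limma adjusted p = 0.27), and 0.12 without that library (limma adjusted p = 0.24, and 0.24 to 0.459 over the 6 fits that each left out 1 library). MVD had 65.7, 72.1 and 50.2 TPM in the controls and 71.3, 76.3 and 67.8 TPM under the H2AS40-KD label. Control-KD replicate 3 was again the low library and the groups overlapped, with a log2 difference of 0.21 (limma adjusted p = 0.47) that was 0.06 without it. The summed level of the arm was 531 ± 13.5 TPM against 548 ± 17.7 TPM (SD, n = 3 each).

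In the squalene and sterol arm 0 of 11 genes were called, and the median log2 difference was 0.01. A limma unadjusted p under 0.05 was given to 1 (9.09%, beside 16.5% of all tested genes). SQLE, squalene epoxidase, a control point late in the pathway, had 64.5, 61.8 and 62.1 TPM in the controls and 68.4, 66.0 and 66.1 TPM under the H2AS40-KD label. All 3 of the latter were higher than every Control-KD library, by a log2 difference of 0.09 with an SE of 0.04 (limma adjusted p = 0.35). CYP51A1, lanosterol demethylase, lay the other way, with 65.5, 61.3 and 66.8 TPM against 58.2, 58.2 and 59.7 TPM. The groups did not overlap, at a log2 difference of -0.13 with an SE of 0.05 (limma adjusted p = 0.237). SQLE and CYP51A1 are both SREBP-2 targets, and neither passed the threshold.

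EBP, the sterol isomerase, had the lowest difference among the enzymes, at a log2 value of -0.17 (limma adjusted p = 0.325). It had 112, 94.8 and 116 TPM in the controls and 98.1, 95.3 and 91.7 TPM under the H2AS40-KD label. Control-KD replicate 2 lay among the libraries of the other label, so the groups overlapped. The remaining 8 genes of the arm had differences between -0.05 and 0.06. Among them FDFT1, squalene synthase, had group means of 50.8 and 51.8 TPM, LSS, lanosterol synthase, had 59.3 and 61.7 TPM, and NSDHL, a sterol dehydrogenase, had 52.3 and 52.3 TPM. The end of the pathway showed the same: DHCR7, the reductase that yields cholesterol, had 129 and 130 TPM, and SC5D, the desaturase before it, had 37.5 and 36.2 TPM. MSMO1, the C4-methyl oxidase, had 34.5 and 34.1 TPM, and TM7SF2, a C14 sterol reductase, had 36.3 and 36.6 TPM. HSD17B7 had 10.9 and 11 TPM, and its near-identical copy HSD17B7P2 had 1.18 and 1.26 TPM, so reads may have been divided between them.

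**Figure D3:**
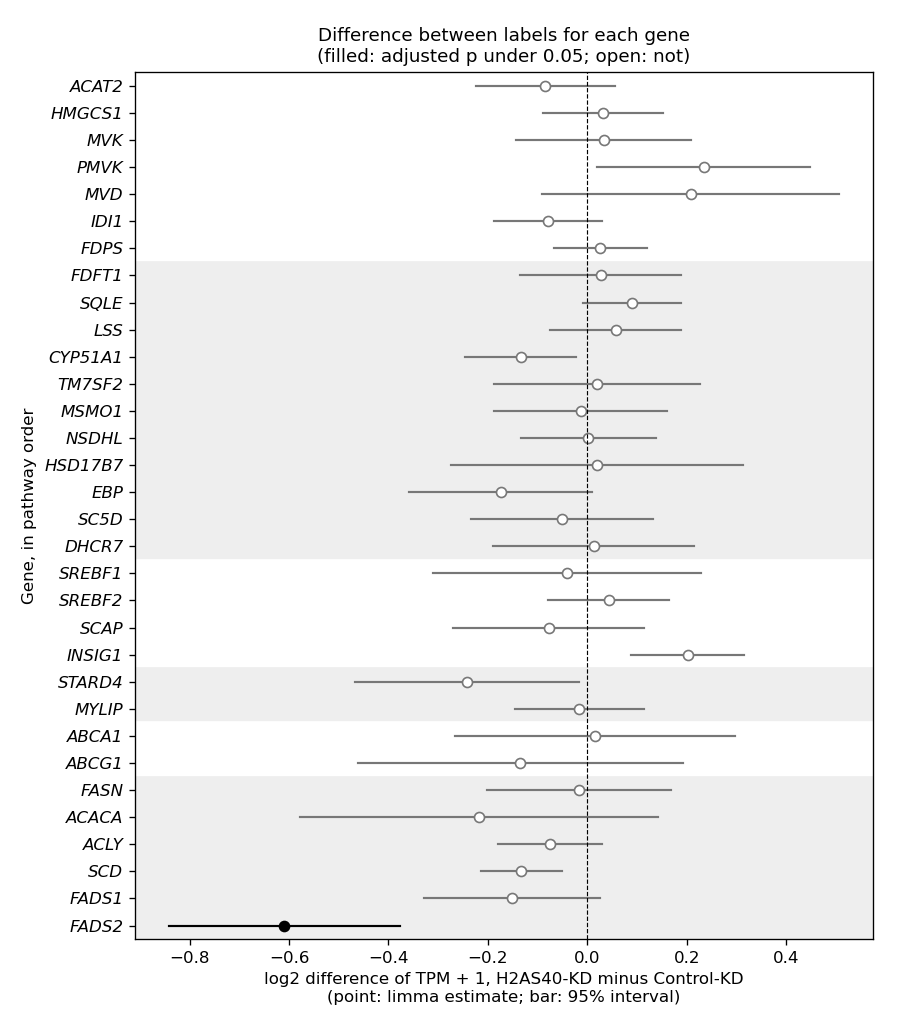
The limma estimate of the log2 difference of TPM + 1 (H2AS40-KD minus Control-KD, point) and its 95% interval (bar) for the 32 genes in pathway order, filled where the adjusted p was under 0.05. The interval of FADS2 runs from -0.84 to -0.38, and INSIG1, PMVK, CYP51A1, STARD4 and SCD have intervals off 0 but adjusted p-values from 0.114 to 0.277.

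Of the 4 regulators, 0 were called, with 1 at a limma unadjusted p under 0.05 (25%, beside 16.5% of all tested genes). That gene was INSIG1, the endoplasmic reticulum protein that retains SCAP and is itself induced by SREBP. INSIG1 had 50.0, 52.1 and 49.2 TPM in the controls and 57.2, 56.7 and 60.5 TPM under the H2AS40-KD label, 15.3% higher in mean. Every library labelled H2AS40-KD was above every Control-KD library, and the spread within groups was small. The log2 difference was 0.20 with an SE of 0.05 (limma unadjusted p = 0.00397, adjusted p = 0.114), which did not pass, and 0.17 to 0.23 over the 6 fits that each left out 1 library. SREBF2 had 35.1, 35.2 and 33.5 TPM against 34.5, 36 and 36.5 TPM, overlapping, with a log2 difference of 0.04 (limma adjusted p = 0.728). SREBF1 had 56.3, 67.9 and 56.2 TPM against 59.6, 50.2 and 65.9 TPM. It was among the more variable genes of the list, so a log2 difference of -0.04 had an interval from -0.31 to 0.23 (limma adjusted p = 0.897). SCAP, the escort of SREBP to the Golgi, had 26.1 and 24.7 TPM.

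STARD4, a carrier that moves cholesterol between membranes and a known SREBP-2 target, had 12.1, 13.3 and 13.8 TPM in the controls and 11.4, 11.6 and 9.77 TPM under the H2AS40-KD label. All 3 of the latter were lower than every Control-KD library, by a log2 difference of -0.24 with an SE of 0.10, which did not pass (limma adjusted p = 0.277). INSIG1 and STARD4 thus lay on opposite sides of 0, neither passed the threshold, and the activity of SREBP was not measured. MYLIP, a ubiquitin ligase that sends lipoprotein receptors for degradation and a target of the sterol-sensing LXR factors, had 37.1 and 36.6 TPM (limma adjusted p = 0.916).

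The exporters ABCA1 and ABCG1, which pass cholesterol to lipoproteins outside the cell and are LXR targets, were not called. ABCA1 had 3.18, 3.58 and 3.34 TPM in the controls and 3.38, 3.70 and 3.17 TPM under the H2AS40-KD label. Its groups overlapped fully (limma adjusted p = 0.963). ABCG1 had 3.93, 5.20 and 3.81 TPM against 3.95, 3.94 and 3.55 TPM, with Control-KD replicate 2 the high library (limma adjusted p = 0.674). At these low levels a log2 difference of TPM + 1 understates a fold change. The groups thus overlapped for MYLIP, ABCA1 and ABCG1.

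All 6 genes of fatty acid synthesis and desaturation had negative differences, from -0.02 to -0.61, of which FADS2 passed. The sign of FASN turned without Control-KD replicate 2, at 0.03, and without H2AS40-KD replicate 1, at 0.05. The median was -0.14 beside 0.01 for all tested genes, of which 53.1% were positive. Relative to the Control-KD mean, the median of the 6 genes was -0.15, -0.06 and -0.18 under the H2AS40-KD label and 0.00, -0.01 and -0.04 in Control-KD. The summed level was 470 ± 9.65 TPM in the controls and 432 ± 19.4 TPM under the H2AS40-KD label (SD, n = 3 each). Without H2AS40-KD replicate 3 the median was -0.09. Of the mesenchymal markers fixed for the labelled cell line, CD44, AXL and CAV1 were lower in the same libraries, and only CAV1 was called. VIM was not lower, with means of 2258 and 2270 TPM. The part of these markers in the result was not tested.

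FADS2 (ENSG00000134824.13) spans bases 61816203 to 61867354 of chromosome 11 in GRCh38.p14. Its level was 36.3, 36.6 and 38.2 TPM in the controls. It had 21.4, 22.8 and 28.0 TPM under the H2AS40-KD label. Every library of that label was below every Control-KD library, with H2AS40-KD replicate 3 the nearest to them. The means were 37.0 ± 1.03 and 24.1 ± 3.48 TPM (SD, n = 3 each), so the level fell by 35.0%. The log2 difference was -0.61 with an SE of 0.10 (limma adjusted p = 0.0433). The call ended in 5 of the 6 fits that each left out 1 library, at limma adjusted p-values from 0.0802 without Control-KD replicate 3 to 0.166 without H2AS40-KD replicate 2. It held without H2AS40-KD replicate 3, at 0.0441, and the difference stayed between -0.53 and -0.72. The call also ended with no filter on low values, without an intensity trend and with the replicate number as a term, at limma adjusted p-values of 0.0959, 0.103 and 0.116.

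FADS1, the delta-5 desaturase, is encoded beside FADS2, and their RefSeq spans share 801 bases, from 61816203 to 61817003. FADS1 had 59.4, 52.4 and 49.2 TPM in the controls and 47.8, 50.2 and 46.3 TPM under the H2AS40-KD label. The groups overlapped, with a log2 difference of -0.15 (limma adjusted p = 0.373) that was -0.08 without Control-KD replicate 1. The level of FADS2 relative to FADS1 was 0.611, 0.698 and 0.776 in Control-KD and 0.448, 0.454 and 0.605 under the H2AS40-KD label. The labels do not say whether strand was kept, so reads in the shared bases cannot be assigned to either gene with certainty.

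SCD, the stearoyl-CoA desaturase that makes oleic acid, had 116, 116 and 116 TPM in the controls and 105, 108 and 104 TPM under the H2AS40-KD label. The Control-KD values were nearly identical and all above the others, at means of 116 ± 0.37 and 106 ± 2.24 TPM (SD, n = 3 each). The log2 difference was -0.13 with an SE of 0.03 and did not pass (limma adjusted p = 0.135). ACACA, acetyl-CoA carboxylase, had 15.4, 16.2 and 14.3 TPM against 13.6, 15.9 and 10.1 TPM. H2AS40-KD replicate 3 was the low library, and the log2 difference of -0.22 (limma adjusted p = 0.526) was -0.05 without it and -0.36 without H2AS40-KD replicate 2. ACLY, which makes cytosolic acetyl-CoA for both sterols and fatty acids, had 106 and 101 TPM (limma adjusted p = 0.452). FASN, fatty acid synthase, had 144, 151 and 130 TPM against 128, 152 and 141 TPM, overlapping, with a log2 difference of -0.02 (limma adjusted p = 0.942).

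**Figure D4:**
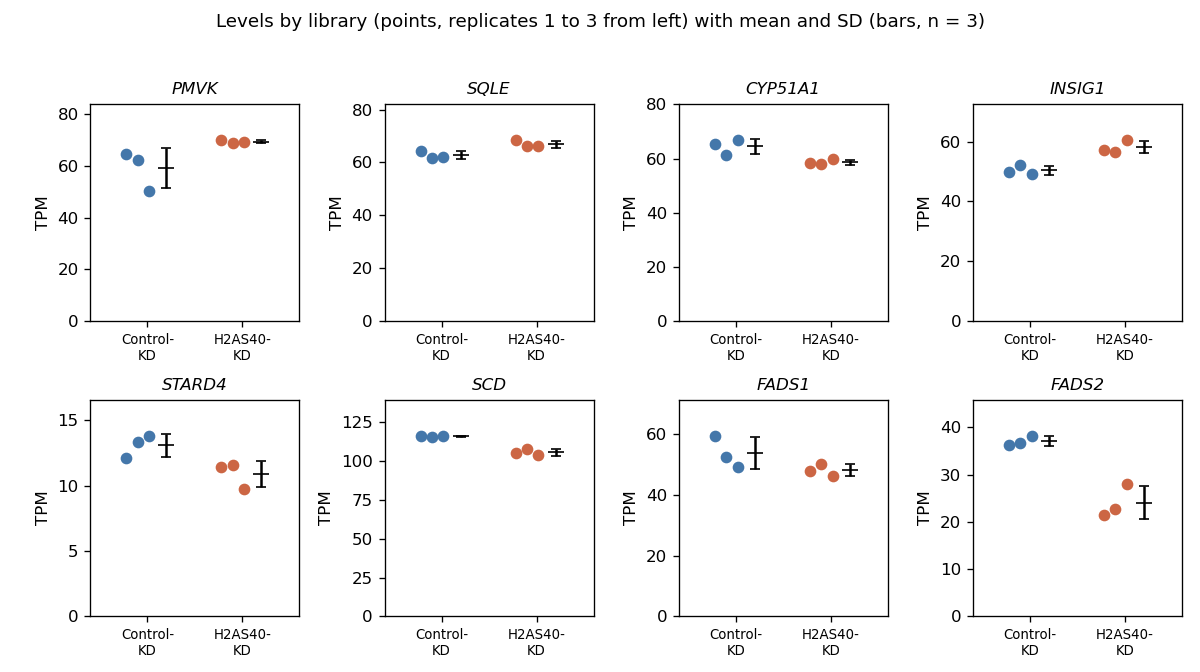
TPM of 8 genes in each library (points, from an axis starting at 0), with the mean and SD of each group (n = 3). They are the 7 genes whose groups do not overlap, and FADS1 for comparison with FADS2, where Control-KD lies at 36.3 to 38.2 TPM and the libraries labelled H2AS40-KD at 21.4 to 28.0 TPM.

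Other genes of sterol and lipid metabolism, 65 in 6 lists by role, were read in the same fit, and 62 were tested. Limma called 0 of these and gave 9 an unadjusted p under 0.05 (14.5%, where 16.5% of all tested genes were), and their median log2 difference was -0.01. Of 12 genes of sterol sensing and SREBP processing, NFYC, a subunit of NF-Y, had the smallest p, with 60.6, 59.8 and 58.9 TPM in the controls and 70.8, 71.4 and 66.1 TPM under the H2AS40-KD label. The groups did not overlap (limma adjusted p = 0.0927), and 25% of these 12 genes had positive differences, where 53.1% of all tested genes did. Of 13 genes of endosomal transport, storage and lipoprotein receptors, it was LRP1, an endocytic receptor of lipoproteins, with 4.03 and 2.42 TPM (limma adjusted p = 0.114). Its libraries labelled H2AS40-KD had 2.64, 2.09 and 2.54 TPM, all below the Control-KD values of 4.38, 4 and 3.70 TPM.

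The same held in the other 4 lists, where the gene with the smallest p did not pass. Of 11 genes of the isoprenoid branches it was RABGGTB, a subunit of the transferase that prenylates RAB proteins, with 99.3 and 107 TPM (limma adjusted p = 0.231). Of 15 genes of fatty acid elongation, activation and other SREBP targets it was ACSL3, a long-chain acyl-CoA synthetase, with 126 and 114 TPM (limma adjusted p = 0.262). Of 8 genes of oxysterols and LXR, 5 were tested and it was NR1H2, which encodes LXR-beta, with 87.3 and 94.1 TPM (limma adjusted p = 0.443). Of 6 electron donors and cofactors of sterol synthesis it was CYB5R3, cytochrome b5 reductase, with 71.0 and 66.4 TPM (limma adjusted p = 0.393).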

How the data were processed

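The 6 RNA libraries were grouped by their titles, and 5 chromatin immunoprecipitation samples of the series were not analysed here. The deposited values are TPM per gene, scaled by the authors to a total of 1000000 in each library. Per the submitters' processing notes, hg38, Bowtie2 and MACS2 were used, with no role or version stated. The quantification tool and strand setting are not given in the sources used here. TPM keep no depth, so read totals are unknown and no counting interval is given. Symbols were matched for 34436 of 37247 identifiers.

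Values were analysed as log2(TPM + 1), which understates fold changes of low genes, for genes with at least 1 TPM in 3 of 6 libraries. The fit used limma 3.58.1 in R 4.3.3 (lmFit, eBayes with a trend). Two-sided p-values were adjusted by Benjamini-Hochberg across every tested gene, and calls were made under 0.05. The fit was also run on simulated normal values whose spread followed mean level alone. That setting does not show how the fit performs on these libraries. Gene positions and promoters came from RefSeq tables of GRCh38.p14, matched by symbol. All 32 genes are named. Of each wider list, called genes were to be named, or else the gene with the smallest p. The members and lists were chosen with earlier results of these data known. RefSeq spans of 8 of the 32 genes overlap another protein-coding gene, so their values are less certain: ACAT2, MVK, IDI1, SREBF1, ABCA1, ACACA, FADS1 and FADS2. Alternatives changed the pseudocount, filter, scaling, spread model, replicate term and libraries.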

Additional observations from a re-analysis of the deposited data

How the results depend on the processing

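Depth is unknown and 3 libraries a group limit the precision. FADS2 was the 1 called gene of the 32 in the main analysis, and 0 were called with no filter on low values, with eBayes without a trend, or with the replicate number as a block. FADS2 then had limma adjusted p-values of 0.0959, 0.103 and 0.116. Over all tested genes, 98, 10 and 0 were called under these 3 settings, against 178. Leaving out 1 library at a time gave 0 to 1 called genes of the list and 5 to 156 over all tested genes, and fewer libraries give less power. In the replicate block, deviations of same-numbered libraries correlated at -0.0101, -0.0642 and -0.0015, so the numbers gave no sign of pairing. The median of the 18 enzymes of cholesterol synthesis, 0.02, was -0.0027 under quantile normalization, 0.00088 with the gene-span trend removed, and 0.0015 to 0.029 leaving out 1 library. That of the 6 fatty acid genes, -0.14, ranged from -0.17 to -0.089 leaving out 1 library. The cause of these shifts was not tested. Of 510 values of the 32 genes under alternatives, 473 kept their direction and side of the threshold, 8 lost the call (all FADS2) and 29 changed sign, in 13 genes whose main difference was at most 0.05 in size. By median-of-ratios scaling NSDHL was at -0.0050. By quantile normalization FDFT1 was at -0.0035, TM7SF2 at -0.0020, NSDHL at -0.025 and DHCR7 at -0.0053. With the gene-span trend removed TM7SF2 was at -0.020 and DHCR7 at -0.0011. A setting added after seeing the data, the 13100 genes of known span with no trend removed, gave 1 and 205 calls. Leaving out 1 library at a time, differences that changed sign ranged from -0.030 to 0.071 for FDFT1, -0.088 to 0.025 for MSMO1, -0.038 to 0.034 for NSDHL, -0.065 to 0.088 for DHCR7, -0.031 to 0.055 for ABCA1, -0.079 to 0.11 for HSD17B7, -0.13 to 0.064 for SREBF1, -0.050 to 0.021 for MYLIP, -0.078 to 0.049 for FASN, -0.057 to 0.11 for TM7SF2, -0.015 to 0.089 for MVK, -0.0067 to 0.052 for FDPS and -0.087 to 0.018 for SC5D.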

Other observations

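The proteases and DNA-binding partners of SREBP gave a mixed picture, and the genes singled out here were chosen after their values were seen. Of the 12 genes of sterol sensing and SREBP processing, the groups did not overlap for 1 higher and 5 lower, which is 8.33% and 41.7% of the list beside 12.9% and 11.3% of all tested genes. Limma called 0 and gave 4 an unadjusted p under 0.05 (33.3%, beside 16.5%). MBTPS1 and MBTPS2, the proteases that cut SREBP in the Golgi, were among the 5. MBTPS1 had 62.6, 60.4 and 58.2 TPM in the controls and 54.9, 56.7 and 56 TPM under the H2AS40-KD label (limma adjusted p = 0.29). MBTPS2 had 15.3, 15.9 and 18 TPM against 14.1, 13.2 and 13.5 TPM (limma adjusted p = 0.208). NFYB, a subunit of NF-Y, had 25.8, 26.4 and 28.2 TPM against 21.9, 22.9 and 24.9 TPM (limma adjusted p = 0.241), the opposite side of 0 from its partner subunit NFYC. Another subunit, NFYA, was also lower without overlap, with 44.2, 44.0 and 48.0 TPM against 43.5, 43.7 and 41.5 TPM (limma adjusted p = 0.519). For SP1, which encodes Sp1, the groups overlapped, with means of 37.0 and 38.4 TPM (limma adjusted p = 0.736).

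Within 100000 bases of FADS2 on chromosome 11, 9 other protein-coding genes were tested, a set chosen after the values of FADS2 were seen. None was called lower and 1 was called higher, where 0.742% and 0.516% of all tested genes were. At such shares, 9 genes give no result about the locus. The gene called higher was FTH1, the ferritin heavy chain, from a mean of 5081 to 5824 TPM (log2 difference 0.20, limma adjusted p = 0.0434). The remaining 8 were not called. The call of FTH1 ended in all 6 fits that each left out 1 library, at limma adjusted p-values from 0.0697 to 0.185, and in 6 of the 10 other alternatives, among them the replicate number as a term (0.147). FEN1, a flap endonuclease of DNA replication on the far side of FADS1, had 126 and 138 TPM (limma adjusted p = 0.138). RAB3IL1, an exchange factor for RAB proteins, had 13.2 and 18.5 TPM (log2 difference 0.46, limma adjusted p = 0.113). FADS3, the neighbouring member of the desaturase family, had 16.8, 18.1 and 16.2 TPM in the controls and 19.5, 14.3 and 16 TPM under the H2AS40-KD label, overlapping (limma adjusted p = 0.883). MYRF, a membrane-bound transcription factor, had 1.39 and 0.938 TPM (limma adjusted p = 0.427).

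CAV1, which encodes the cholesterol-binding coat protein of caveolae and was read as a marker of the cell line, fell from 149 to 111 TPM. It had 144, 149 and 156 TPM in the controls and 117, 108 and 109 TPM under the H2AS40-KD label, a log2 difference of -0.42 with an SE of 0.05 (limma adjusted p = 0.0173). The groups did not overlap, and it was singled out after its values were seen. The call ended with the replicate number as a term (limma adjusted p = 0.115), without an intensity trend (0.0881) and in 5 of the 6 fits that each left out 1 library, at 0.0729 to 0.0844, and held without Control-KD replicate 3 (0.0308). The other mesenchymal markers were not called, with log2 differences of -0.21 for CD44, -0.09 for AXL and 0.0075 for VIM.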
